A study of Mus musculus with 201 samples.

Results

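The BXD strains were divided by their hippocampal Glo1 level. BXD strains are recombinant inbred mouse lines, each bred by inbreeding towards its own fixed mosaic of chromosome segments from the parents DBA/2J and C57BL/6J. Of the 100 strains on 201 arrays of the series, 68 were BXD strains, on 134 arrays. A strain's value was the mean of its arrays for the brightest of the 4 Glo1 probe sets. Strains at or above the midpoint between the lowest and the highest strain value, 9.71 PDNN units, formed the high group, and strains below it the low group. PDNN units are the deposited score. The labels do not name the base of its logarithm, so differences are given in these units and not as folds. The high group held 31 strains on 60 arrays and the low group 37 strains on 74 arrays. By their names, some are sister substrains (BXD73 and BXD73a in the high group, BXD48, BXD48a, BXD65, BXD65a and BXD65b in the low group). Each substrain was counted as 1 strain. All mice were untreated by the labels, and each array carried whole-hippocampus RNA pooled from 2 to 4 mice of 1 sex, except 1 pool of mixed sex. Per the labels the dissections may hold varying amounts of subiculum and fimbria, and some later lines were not yet fully inbred. Mean pool age had a median of 61 days (range 54 to 196) in the high group and 62 days (range 54 to 193) in the low group. The high group had 17 strains of the earlier BXD set and 14 of the later set, and the low group 12 and 25 (Fisher's exact test, two-sided, p = 0.0859). The file headers of 4 BXD arrays disagreed with their labels in strain name (both of BXD14), sex (1 of BXD9) or batch (1 of BXD13), and the labels were followed. Because measured Glo1 values chose the groups, Glo1 itself is described below without a test.

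Glo1 encodes glyoxalase 1, which with glutathione turns methylglyoxal, a reactive by-product of glycolysis, into S-lactoylglutathione. The second enzyme of this pathway, Hagh (glyoxalase 2), then releases lactate and returns the glutathione. In mice Glo1 lies on chromosome 17, and several inbred strains, DBA/2J among them, are known to carry a copy-number gain that spans Glo1 and its neighbours, whereas C57BL/6J lacks it. In brain the enzyme is known from work on anxiety-like behaviour, in which methylglyoxal acted at GABA-A receptors. The major histocompatibility complex (MHC), whose class I and class II genes encode antigen-presenting proteins and vary strongly between strains, lies on the same chromosome. The promoters of Glo1 and of the class I genes H2-D1 and H2-K1, from the RefSeq table of the GRCm38.p6 build, are shown because the largest named neighbour difference fell on H2-D1, and H2-K1 is a class I gene of the same region. Each runs from 250 bases before to 50 after the annotated start, and the letters are those of the reference, not of the strains measured. Capitals mark, on either strand, matches to 4 short words, namely the CCAAT box (spelled CCAAT), the GC box (spelled GGGCGG), the TATA box (spelled TATAAA) and the core of the kappa B site of class I promoters (spelled GGGATTCCC).
Glo1 promoter, chr17:30612610-30612909, minus strand: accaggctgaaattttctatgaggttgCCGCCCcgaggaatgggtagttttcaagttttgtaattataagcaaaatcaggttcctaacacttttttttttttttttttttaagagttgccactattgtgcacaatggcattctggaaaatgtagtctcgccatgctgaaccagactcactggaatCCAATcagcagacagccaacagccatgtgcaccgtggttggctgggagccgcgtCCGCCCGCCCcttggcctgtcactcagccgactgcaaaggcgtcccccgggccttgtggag
H2-D1 promoter, chr17:35262844-35263143, plus strand: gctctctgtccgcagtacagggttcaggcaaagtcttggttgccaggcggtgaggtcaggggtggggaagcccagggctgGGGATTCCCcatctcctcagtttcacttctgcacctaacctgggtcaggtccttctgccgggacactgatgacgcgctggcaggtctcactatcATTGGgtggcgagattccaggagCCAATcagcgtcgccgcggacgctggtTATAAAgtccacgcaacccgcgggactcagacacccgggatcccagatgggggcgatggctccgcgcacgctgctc
H2-K1 promoter, chr17:34000298-34000597, minus strand: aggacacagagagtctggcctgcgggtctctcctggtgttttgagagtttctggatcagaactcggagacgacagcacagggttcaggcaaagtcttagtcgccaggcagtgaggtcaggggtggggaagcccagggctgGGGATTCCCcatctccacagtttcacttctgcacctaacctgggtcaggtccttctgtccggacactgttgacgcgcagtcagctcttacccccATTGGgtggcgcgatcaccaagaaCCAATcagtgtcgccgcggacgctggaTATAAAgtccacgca
The Glo1 window held 1 CCAAT box and 3 GC boxes, of which a pair overlap, and no match to the TATA box or the kappa B core. Both class I windows held 1 kappa B core, 1 TATA box and 2 CCAAT boxes. Among 32851 promoter windows of the same length, the CCAAT box was in 37.4%, the GC box in 35.7%, the TATA box in 13.6% and the kappa B core in 0.353%. These matches describe letters only.

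Strain means of the Glo1 probe set that formed the groups were 9.7725 at the lowest, 9.925 at the median and 10.2015 at the highest in high-Glo1 strains, against 9.226, 9.3755 and 9.533 in low-Glo1 strains. No strain lay between BXD50, the lowest of the high group at 9.7725, and BXD27, the highest of the low group at 9.533, a gap of 0.240 units. BXD9, at 9.7735, was next to BXD50, and the second-highest low strain was at 9.519. BXD99 was highest, and the next strain, BXD76, was at 10.1. The other Glo1 probe sets were ordered alike, with group means of 9.56 ± 0.101 in high-Glo1 strains and 9.01 ± 0.0723 in low-Glo1 strains for 1424108_at (SD, n = 31 and 37). Probe set 1436070_at had the smallest separation, 9.04 ± 0.0822 in the high group and 8.72 ± 0.0688 in the low group (SD), and its groups overlapped between 8.8875 and 8.894. Of 65 strains with 2 or more arrays, 63 had all arrays on the strain's own side of the midpoint. The exceptions were BXD21, with arrays at 10.01 and 9.631, and BXD40, with arrays at 9.963 and 9.611. Both were in the high group by their means.

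**Figure D1:**
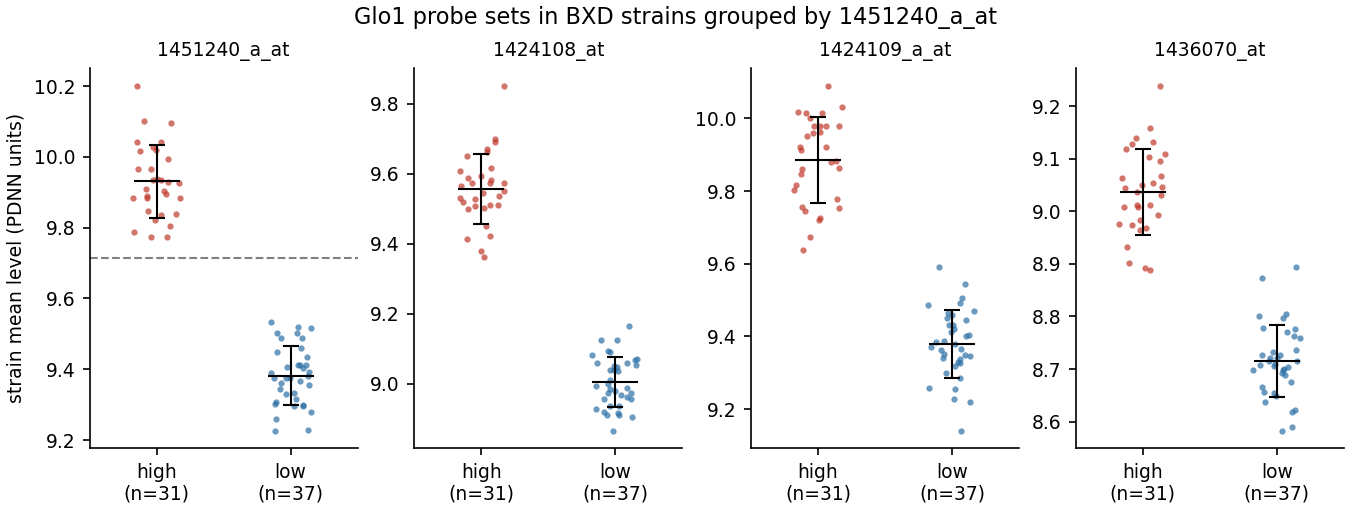
Strain means (vertical axis, PDNN units) of the 4 Glo1 probe sets in 31 high-Glo1 strains (red, left in each panel) and 37 low-Glo1 strains (blue, right). Black bars are mean ± SD, and the dashed line in the first panel is the midpoint of 9.71 that set the groups, which chose the separation seen there.

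Genes that differed between high-Glo1 and low-Glo1 strains lay mostly on chromosome 17. Over 45033 probe sets other than those of Glo1, 105 passed limma's test between strain values at an adjusted p of 0.05, which is 0.233% of those tested. Of these, 40 were higher in high-Glo1 strains (0.0888%) and 65 lower (0.144%). Within 10 Mb of Glo1, with distances from GRCm38.p6, 86 of 736 probe sets passed (11.7%), standing for 67 genes, with 33 higher and 53 lower. On the rest of chromosome 17, 5 of 756 passed, and on other chromosomes 0 of 33245. Without the 4 arrays whose headers disagreed there were 102 calls, 83 of them within 10 Mb of Glo1 and 0 on other chromosomes. On all arrays, a further 14 calls carried no gene symbol (11) or several (3) and could not be placed. Because BXD strains inherit linked segments together, a gene's own allele and the Glo1 level cannot be told apart for neighbours on chromosome 17. Levels here are probe set signals, and whether they followed RNA amount alike for both parental alleles was not tested. Of the 25 named genes of chromosome 17, several with more than 1 probe set passed through only 1. These were Vps52, Rnps1, Zfp942, Zfp945, H2-K1, Kctd5, Prr18, Riok2, Rcan2, Mmut and Adgrf5. The p-values rest on the spread among strains, each measured in pools of mice, and part of that spread may be technical. They treat sister substrains as independent. With these averaged, leaving 64 units, 84 probe sets within 10 Mb of Glo1 passed.

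The genes beside Glo1 showed no detected difference. None of the 19 probe sets of genes within 0.5 Mb of Glo1, measured between the nearest gene ends, passed. The largest difference among them was 0.0348 ± 0.0102 (SE), for 1455221_at of Abcg1. Its unadjusted p of 0.00103 did not survive adjustment (limma adjusted p = 0.306). The other Abcg1 probe set differed by 0.00342 ± 0.0176. Btbd9, the adjoining gene, which encodes a BTB-domain protein, had a level of 8.54, 8.62 and 8.76 (lowest, median, highest) in high-Glo1 strains and 8.49, 8.64 and 8.70 in low-Glo1 strains through 1435706_at. The groups overlapped almost fully, and the difference, high minus low, was 0.00675 ± 0.0128 units (SE). Its other probe sets differed by 0.00785 ± 0.0214 and 0.00211 ± 0.0122. Dnah8, on the opposite side of Glo1, encodes an axonemal dynein heavy chain known from sperm. It had levels of 7.43, 7.54 and 7.70 in high-Glo1 strains against 7.43, 7.51 and 7.61 in low-Glo1 strains through 1424936_a_at, with a difference of 0.0306 (95% interval 0.00856 to 0.0527) and an unadjusted p of 0.00822 that did not survive adjustment (limma adjusted p = 1.00). Its second probe set, 1425692_a_at, differed by -0.0115 ± 0.0108. Glp1r, the receptor of glucagon-like peptide 1, had levels of 7.58, 7.64 and 7.77 in high-Glo1 strains and 7.54, 7.65 and 7.77 in low-Glo1 strains, with a difference of -0.00570 (95% interval -0.0271 to 0.0157). Dnah8 and Glp1r read below the array mean of about 8. Whether either was expressed enough to show a difference was not tested. The nearest calls were Rnf8, a ubiquitin ligase of DNA repair, 0.951 Mb away (difference -0.0568, adjusted p = 0.0490), Sik1, a salt-inducible kinase, at 1.23 Mb (-0.0767, adjusted p = 0.000266), and Ppil1, a splicing-associated prolyl isomerase, at 1.33 Mb (-0.102, adjusted p = 3.28e-09). These 3 were named after their values were seen.

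Calls were more frequent farther out. Of 309 probe sets at 2.5 to 5 Mb, 35 passed (11.3%), and of 272 at 5 to 10 Mb, 48 passed (17.6%). At 10 to 20 Mb 4 of 282 passed (1.42%), and beyond 20 Mb 1 of 474 (0.211%). The calls within 10 Mb fell on both sides of Glo1, 45 at lower and 41 at higher coordinates. The median absolute difference was 0.0123 units within 10 Mb and 0.00933 on other chromosomes.

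**Figure D2:**
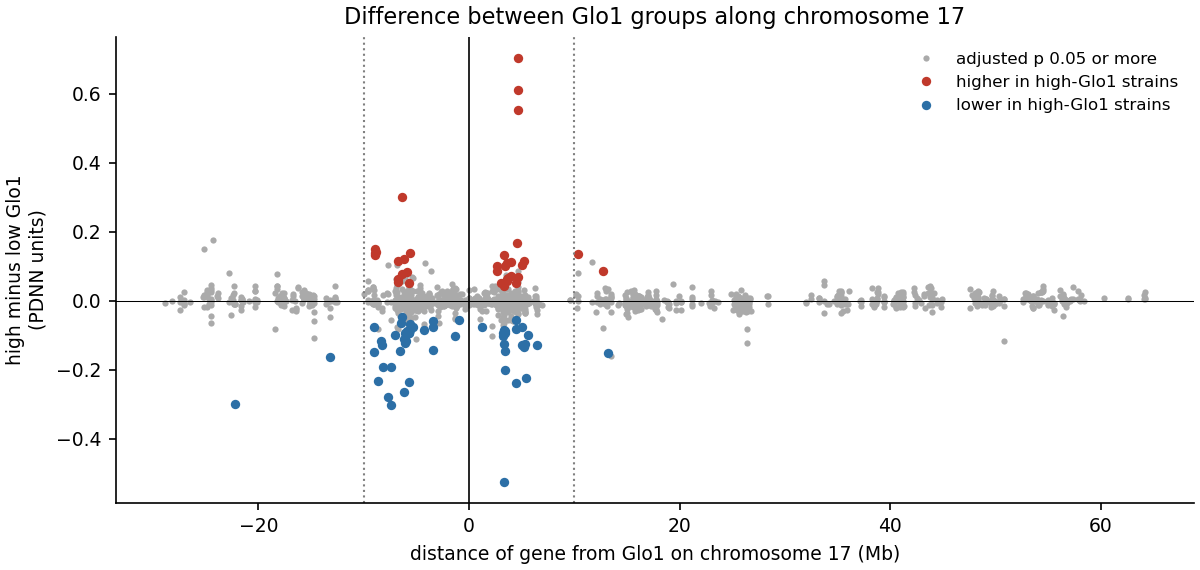
Difference between high-Glo1 and low-Glo1 strains (vertical axis, PDNN units, high minus low) for each probe set placed on chromosome 17, by the distance of its gene from Glo1 (horizontal axis, Mb, lower coordinates to the left). Coloured points passed an adjusted p of 0.05 (red higher, blue lower in high-Glo1 strains), and dotted lines mark 10 Mb. The coloured points lie in clusters on either side of Glo1, with none within 0.5 Mb.

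On the MHC side, H2-D1, a class I heavy chain gene 4.65 Mb from Glo1, had the largest difference of a named gene. Through 1452544_x_at its levels were 7.60, 8.52 and 8.82 (lowest, median, highest) in high-Glo1 strains and 7.47, 7.61 and 8.76 in low-Glo1 strains. The ranges overlapped, but strains fell into an upper and a lower cluster with few between. The difference was 0.704 ± 0.0790 units (SE; adjusted p = 3.04e-09). Of its 9 probe sets 3 passed, all higher, the others at 0.611 and 0.554. The remaining 6 differed by -0.0378 to 0.0383 and did not pass. Class I genes are near-identical copies of one another, and probe sets of this kind can read several of them, so which copy was measured is uncertain. H2-K1, the class I gene at 3.38 Mb, had levels of 8.06, 8.31 and 8.73 in high-Glo1 strains against 8.25, 8.47 and 8.95 in low-Glo1 strains through 1425336_x_at. It was lower, with a difference of -0.147 ± 0.0342 (adjusted p = 0.0238), and its other 3 probe sets did not pass, at -0.0149 to 0.0443. This call was lost without BXD31 alone and under 5 alternatives, among them RMA values (adjusted p = 0.271) and MAS5 values (adjusted p = 0.943). H2-T24, a non-classical class I gene, was also lower, with levels of 7.37, 7.57 and 7.95 in high-Glo1 strains and 7.48, 7.82 and 8.36 in low-Glo1 strains. Its difference was -0.225 ± 0.0388 (adjusted p = 0.000203). The class II gene H2-Ab1 was higher through all 3 of its probe sets, by 0.0571, 0.0629 and 0.109. Read through each gene's brightest probe set, 1 of 12 measured MHC genes was higher (H2-Ab1) and 1 lower (H2-T24). Of all probe sets within 10 Mb of Glo1, 11.7% passed, and of all tested 0.233%. Through any probe set, 4 of the 12 genes had a call, against 67 of all 420 genes measured within 10 Mb. Whether the MHC share differed from that of its window was not tested. The median difference of this list was -0.0107, against -0.000858 over all probe sets tested. The antigen-processing genes Tap1, Tap2, Psmb8, Psmb9 and Tapbp did not pass through any probe set and differed by -0.0239 to 0.00930.

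Vps52, a subunit of the GARP complex that returns vesicles to the Golgi, had the largest negative difference. Its levels through 1447894_x_at were 7.48, 7.54 and 8.30 in high-Glo1 strains against 7.50, 8.25 and 8.43 in low-Glo1 strains, a difference of -0.525 ± 0.0584 (adjusted p = 2.54e-09). High-Glo1 strains were mostly in the lower of its clusters, and its second probe set did not pass, at -0.0222. Abhd16a, a phosphatidylserine lipase, had levels of 8.77, 8.90 and 9.29 in high-Glo1 strains and 8.87, 9.21 and 9.36 in low-Glo1 strains, and was lower, with a difference of -0.239 ± 0.0297 (adjusted p = 5.77e-08). Lst1, a leukocyte gene of the MHC class III region, was higher, with 7.49, 7.76 and 7.90 in high-Glo1 strains against 7.41, 7.54 and 7.90 in low-Glo1 strains (difference 0.168 ± 0.0249, adjusted p = 7.38e-06). Flot1, a lipid-raft scaffold, was lower, with a difference of -0.135 ± 0.0213 (adjusted p = 2.92e-05). Gabbr1, a subunit of the GABA-B receptor 6.43 Mb from Glo1, was named after its values were seen. It was lower, with a difference of -0.130 (adjusted p = 0.000328).

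On the lower-coordinate side, Spsb3, a SOCS-box adaptor of ubiquitin ligases, had the smallest adjusted p of a named gene. Its levels were 8.30, 8.38 and 8.70 in high-Glo1 strains and 8.33, 8.68 and 8.78 in low-Glo1 strains, a difference of -0.237 ± 0.0239 (adjusted p = 6.57e-11). Most high-Glo1 strains lay below 8.54, the midpoint of its range, and most low-Glo1 strains above it. Tbc1d24, a vesicle-trafficking protein linked to epilepsy in humans, was higher, with 8.27, 8.80 and 9.05 in high-Glo1 strains against 8.25, 8.42 and 8.74 in low-Glo1 strains. The difference was 0.301 ± 0.0355 (adjusted p = 9.22e-09), and a second of its 3 probe sets also passed, at 0.0765. Rnps1, a component of the exon junction complex, was lower through 1437359_at, with 7.88, 8.04 and 8.42 in high-Glo1 strains and 8.02, 8.35 and 8.50 in low-Glo1 strains (difference -0.264 ± 0.0298, adjusted p = 3.06e-09). Its other 4 probe sets were brighter, at mean levels of 9.39 to 9.83 against 8.22. They differed by -0.0182 to -0.00314 and did not pass. Kctd5, a ubiquitin ligase adaptor, and Uqcc2, an assembly factor of respiratory complex III, were lower, with differences of -0.145 ± 0.0224 and -0.142 ± 0.0241. Kctd5 did not pass with RMA values (adjusted p = 0.993), and its second probe set, at -0.0451 ± 0.0136, did not pass either. Cramp1l was higher through 1420325_at (difference 0.137 ± 0.0171, adjusted p = 5.77e-08) but lower through 1420326_s_at (-0.0665, adjusted p = 0.00317), so no direction is given for the gene.

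Of 38 Zfp genes, which encode zinc finger proteins, measured within 10 Mb, 13 had a called probe set, against 67 of all 420 genes measured there. By probe set, 17 of 69 passed (7 higher, 10 lower), against 86 of 736 in the same window. This group was put together after the values were seen, and its share was not tested. Zfp40 had levels of 7.27, 7.59 and 8.15 in high-Glo1 strains against 7.50, 7.89 and 8.17 in low-Glo1 strains, a difference of -0.302 ± 0.0428 (adjusted p = 2.47e-06). Zfp942 (-0.232), Zfp758 (-0.193) and Zfp52 (-0.148, not passing with RMA values at an adjusted p of 0.177) were also lower. Zfp983 (0.150) and Zfp760 (0.141) were higher. Zfp945 is given no direction. Its called probe set differed by -0.280 ± 0.0464 and its others by 0.103 ± 0.0259 (limma adjusted p = 0.0639) and 0.0184 ± 0.00806. Zinc finger genes of this cluster are close copies of one another, so their probe sets may share transcripts.

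On the rest of chromosome 17 the 5 called genes lay 10.3 to 22.2 Mb from Glo1. Prr18, a proline-rich protein at 22.2 Mb, had levels of 8.22, 8.47 and 9.11 in high-Glo1 strains and 8.31, 8.89 and 9.33 in low-Glo1 strains, a difference of -0.299 ± 0.0613 (adjusted p = 0.00365). Mmut, the mitochondrial methylmalonyl-CoA mutase, was higher by 0.135 ± 0.0252 (adjusted p = 0.000703), whereas Adgrf5, an adhesion G protein-coupled receptor, is given no direction, since its called probe set differed by 0.0861 ± 0.0174 and its other by -0.0797 ± 0.0214 (adjusted p = 0.138). Rcan2, a calcineurin regulator, and Riok2, a kinase of ribosome assembly, were lower through their called probe sets, with differences of -0.152 ± 0.0316 and -0.163 ± 0.0370. The other Rcan2 probe set was brighter, at a mean level of 9.38 against 7.97. It differed by 0.0338 ± 0.0293 and did not pass, so no direction is given for Rcan2. The Riok2 call was lost without BXD31 alone and under 4 alternatives (adjusted p = 0.0637 to 0.184), and with MAS5 values neither Mmut (adjusted p = 0.313) nor Rcan2 (adjusted p = 0.0930) passed. Each of these genes passed through 1 probe set only.

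**Figure D3:**
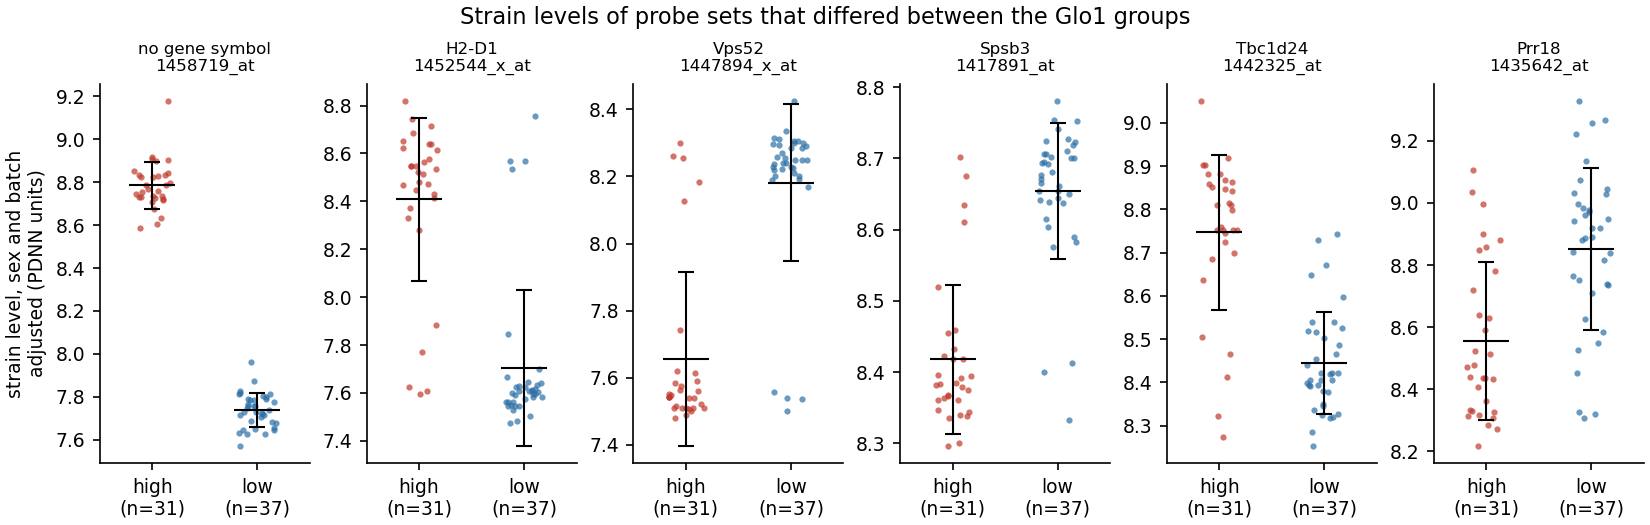
Strain levels, adjusted for sex and batch (vertical axes, PDNN units, 1 scale a panel), of 6 probe sets in 31 high-Glo1 strains (red, left) and 37 low-Glo1 strains (blue, right), with mean ± SD. Only 1458719_at, which has no gene symbol, separates the groups completely. H2-D1, Vps52 and Spsb3 form upper and lower clusters with a few strains of each group in the other cluster. Tbc1d24 levels run on without a clear gap, and Prr18 is more spread.

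Some neighbouring genes shared the strains that went against their Glo1 group, and others did not. Splitting each probe set at the midpoint of its own range, as a description without a test, 9 strains lay on the side opposite to their Glo1 group for H2-D1. These were BXD39, BXD69, BXD76, BXD86 and BXD98 of the high group, and BXD12, BXD27, BXD70 and BXD87 of the low group. The same 9 strains were on the opposite side for Vps52 and for Abhd16a. On the other side of Glo1, 7 strains were opposite for Spsb3, namely BXD9, BXD11, BXD16 and BXD40 of the high group and BXD12, BXD64 and BXD87 of the low group. All 7 were among the 10 opposite for Rnps1. BXD12 and BXD87 were the 2 strains opposite for both H2-D1 and Spsb3. Lst1, between Abhd16a and H2-D1, had 11 opposite strains, which were 8 of those 9 (all but BXD70) and BXD1, BXD33 and BXD67. H2-K1, next to Vps52, had 27 (4 high, 23 low) and H2-T24 had 26 (1 high, 25 low). The midpoints of H2-K1 and H2-T24, 8.51 and 7.87, lay above their low-group medians of 8.47 and 7.82. Their counts therefore depend on where the range ends, and do not show that these genes divided the strains differently. On the rest of chromosome 17 the count was 15 for Adgrf5, 18 for Riok2 and Rcan2, 19 for Mmut and 21 for Prr18.

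One probe set without a gene symbol, 1458719_at, was the single one of 45033 (0.00222%) whose strain levels did not overlap between the groups. Its levels were 8.59, 8.77 and 9.18 in high-Glo1 strains and 7.57, 7.74 and 7.96 in low-Glo1 strains. Its difference was 1.05 ± 0.0227 units (adjusted p = 2.94e-49), and it ran within single batches from 0.967 to 1.23. BXD99 was highest for this probe set, as for Glo1. Probe sets 1428989_at (0.131 ± 0.00855) and 1435872_at (-0.253 ± 0.0223), also without a symbol, had the next smallest adjusted p-values, 1.12e-19 and 2.64e-13. The positions of these probe sets are not used here.

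The strains outside the BXD panel had no part in forming the groups. For the Glo1 probe set that formed the groups the 2 DBA/2J arrays read 9.97 and 9.764, against 9.232, 9.593 and 9.096 in the 3 C57BL/6J arrays. Both DBA/2J pools were female, whereas C57BL/6J had pools of either sex, and their batches differed in part. The values in this paragraph were not adjusted for sex or batch. For 1458719_at the DBA/2J arrays read 8.787 and 8.739, against 7.821, 7.649 and 7.739 in C57BL/6J. The parents thus lay on opposite sides of the BXD midpoints of 9.71 for Glo1 and 8.37 for 1458719_at, and the F1 hybrids B6D2F1 and D2B6F1 had strain means of 9.81 and 9.75 for Glo1 and of 8.49 and 8.52 for 1458719_at. Among 13 strains of the CXB panel, another recombinant inbred set with BALB/cByJ and C57BL/6ByJ as parents, 5 were at or above the Glo1 midpoint. The same 5 were at or above the midpoint of 1458719_at, and the other 8 below both. Among 17 inbred strains 10 were at or above the Glo1 midpoint and 6 of these were also above that of 1458719_at. The 4 that were not were CAST/EiJ, NOD/LtJ and PWK/PhJ, at 7.85, 7.72 and 7.73 for 1458719_at, and BALB/cJ, at 8.28. The BALB/cJ arrays were spread for Glo1, at 9.841, 10.523 and 9.499, so that its place above the midpoint rested on the array at 10.523. A/J was highest for both, at 10.43 and 9.46. H2-D1 did not follow Glo1 in all of these strains, since 129S1/SvImJ, with a Glo1 mean of 10.198, read 7.55 for H2-D1, while LG/J, with a Glo1 mean of 9.6375, read 8.46.

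**Figure D4:**
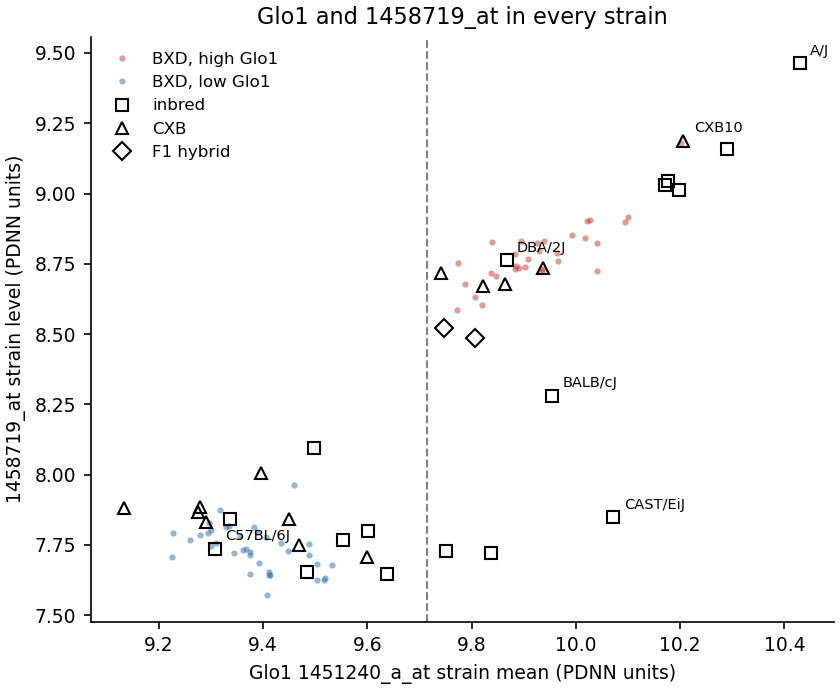
Strain mean of the Glo1 probe set that formed the groups (horizontal axis) against the level of 1458719_at (vertical axis), both in PDNN units; BXD strain levels of 1458719_at are adjusted for sex and batch, and those of other strains are plain means. Red and blue points are high-Glo1 and low-Glo1 BXD strains, open symbols are inbred (squares), CXB (triangles) and F1 hybrid (diamonds) strains, and the dashed line is the Glo1 midpoint. CXB strains fall with one or the other BXD cluster, whereas CAST/EiJ, NOD/LtJ and PWK/PhJ are above the Glo1 midpoint with 1458719_at below 7.9.

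Most neighbour differences had the same direction between the parents. In arrays outside the BXD panel, 76 of the 86 probe sets called within 10 Mb of Glo1 differed in the same direction for DBA/2J minus C57BL/6J as for high minus low Glo1. Of the 86, 14 passed limma's test between the parents (16.3%), all in the same direction, against 11 of 650 neighbours not called in the BXD strains (1.69%) and 3.26% of all probe sets. The count of 14 became 8 to 12 when 1 parental array was left out (9 without DBA/2J replicate 1, 8 without DBA/2J replicate 2 and 9 without C57BL/6J replicate 3) and 9 without a batch term. H2-D1 differed by 0.813 ± 0.116 between the parents (SE; adjusted p = 3.73e-05), with arrays at 8.492 and 8.385 in DBA/2J and at 7.556, 7.503 and 7.682 in C57BL/6J. Vps52 differed by -0.822 ± 0.0807 (adjusted p = 6.53e-08). The parental differences of Spsb3 (-0.391), Abhd16a (-0.431), Zfp945 (-0.448), Flot1 (-0.387) and Zfp983 (0.289) passed as well. For Zfp945 this was its called probe set, and its probe set 1437127_at differed by 0.253 without passing. Zfp40 (0.277) and Rnps1 (0.0713) had the opposite sign between the parents without passing (adjusted p = 0.545 and 0.874). So did H2-T24 (0.0132), Zfp52 (0.0144) and Adgrf5 (-0.0721), with limma adjusted p of 0.984, 0.983 and 0.725. With 2 and 3 arrays for the parents, the precision was low, and the 25 named genes of chromosome 17 had the same sign in 20.

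**Figure D5:**
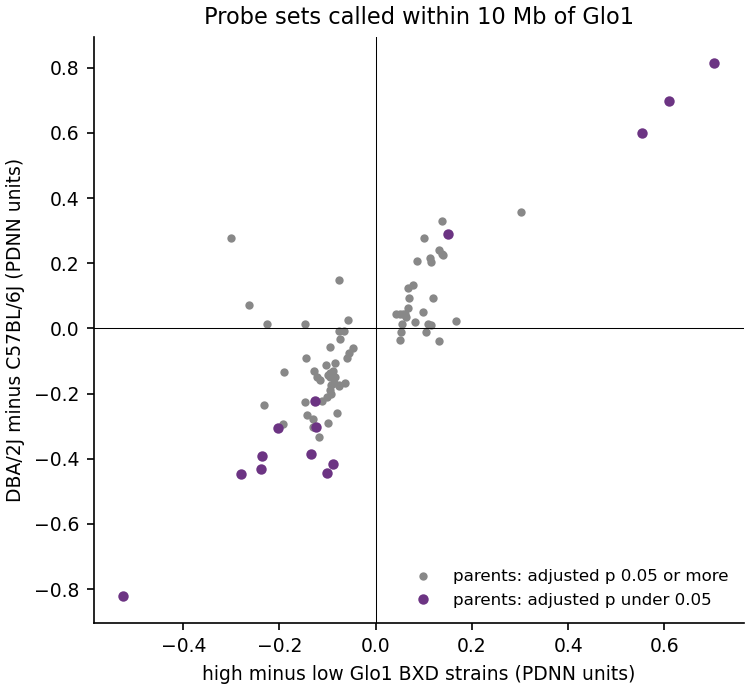
The 86 probe sets called within 10 Mb of Glo1, by their difference between high-Glo1 and low-Glo1 BXD strains (horizontal axis, high minus low) and between the parents (vertical axis, DBA/2J minus C57BL/6J), both in PDNN units. Purple points passed an adjusted p of 0.05 between the parents. Points lie mostly in the lower left and upper right, as 76 of 86 have the same sign.

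Away from chromosome 17 no gene passed limma's test. At an unadjusted p under 0.05 there were 1141 of 33245 probe sets (3.43%). The smallest adjusted p was 0.125, for Grem1, a secreted antagonist of bone morphogenetic proteins, at a difference of -0.0502 ± 0.0133. Tle3, a transcriptional co-repressor, differed by 0.0417 ± 0.0111 (adjusted p = 0.133). Of the genes that handle methylglyoxal and glutathione, 0 of 14 measured passed, with a median difference of 0.00369. Hagh, the next enzyme of the glyoxalase pathway, itself 5.73 Mb from Glo1, differed by -0.0695 ± 0.0187 (adjusted p = 0.147). Gclc and Gclm, the subunits that make the glutathione precursor, differed by -0.0402 ± 0.0284 and 0.0339 ± 0.0161. Glycolysis enzymes (0 of 13), targets of the stress factor NRF2 (0 of 9) and GABA-A receptor subunits (0 of 9) did not pass either, with differences of -0.0429 to 0.0184, -0.0402 to 0.0339 and -0.0303 to 0.0327. Immediate early genes (0 of 12) had a median difference of -0.0165. With 0.233% of all tested probe sets passing, these counts of 0 do not set the lists apart from other genes.

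Without the BXD set as a covariate, cell type markers gave no call. No marker passed of pyramidal neurons (0 of 8), dentate granule neurons (0 of 10), interneurons (0 of 10), oligodendrocytes (0 of 10), astrocytes (0 of 10), microglia (0 of 10), endothelium (0 of 8), choroid plexus (0 of 10), thalamus (0 of 10) or erythroid cells (0 of 2). Over all probe sets tested 0.233% passed, so counts of 0 in lists this short say little about cell make-up. The mean level of the dentate granule neuron markers was 8.57 to 8.89 in high-Glo1 strains and 8.53 to 8.84 in low-Glo1 strains, above the array mean of about 8 in every strain of both groups. Microglial markers had a median difference of -0.0439 over 10 genes (range -0.0884 to 0.00408). Among them Cx3cr1, the fractalkine receptor, differed by -0.0884 ± 0.0277 and Tmem119, a marker of resident microglia, by -0.0694 ± 0.0216, both with an adjusted p of 0.515. The earlier BXD set made up more of the high group (17 of 31 strains) than of the low group (12 of 37), and with the set as a covariate both passed, Cx3cr1 at -0.109 (limma adjusted p = 0.0391) and Tmem119 at -0.0854 (adjusted p = 0.0403). The mean level of the microglial list was 8.28 to 8.74 in high-Glo1 strains and 8.39 to 8.73 in low-Glo1 strains. In bulk hippocampus, fewer cells of a type and less RNA per cell cannot be told apart. The choroid plexus list had a median difference of -0.0471, with levels from 7.91 to 9.20 in the high group and from 7.84 to 9.25 in the low group. Its part in other differences was not tested.

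The differences near Glo1 were seen in both sexes and in both BXD sets, although the calls were chosen on the pooled strains, which fixes much of this. H2-D1 differed by 0.757 in the earlier and 0.650 in the later BXD set, and by 0.706 in female and 0.688 in male pools. A further limma test asked whether the high-minus-low difference itself changed between the sets or between the sexes. No probe set passed it for the sets (smallest adjusted p = 0.831, 2042 at an unadjusted p under 0.05). None passed it for the sexes (smallest adjusted p = 1.00, 1421 at an unadjusted p under 0.05). Within each of the 7 batches every one of the 25 named genes kept the direction of the whole panel, and these were chosen for their large differences. Of all 86 calls near Glo1, the direction was that of the whole panel in 78 to 86 within single batches. H2-D1 ranged over batches from 0.345 to 0.995, Vps52 from -0.767 to -0.234 and Spsb3 from -0.352 to -0.134.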

How the data were processed

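Hippocampal RNA was hybridized to Affymetrix M430 2.0 arrays, and the authors deposited PDNN, RMA and MAS5 scores per probe set. PDNN scores, for which the labels state a target mean of 8 and SD of 2, had array means of 8.06 to 8.10 and SDs of 0.633 to 0.801 and were analysed as deposited. The members, gene lists and tests were chosen with earlier results of these data known. Strain values came from a limma 3.58.1 fit (R 4.3.3, the data.table package, version 1.17.8) with strain, sex and batch on 134 arrays, and high and low strains were compared in a second limma fit with 66 residual degrees of freedom. P-values were two-sided and adjusted by Benjamini-Hochberg over 45033 probe sets. The 64 control and 4 Glo1 probe sets were left out. Parents were compared in 66 arrays outside the panel, with a technical duplicate averaged. Symbols came from GEO's platform annotation (34945 probe sets with 1 symbol, 932 with several, 9160 with none), placed by gene ID on RefSeq GRCm38.p6. The software the authors used is not named in the labels.

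Named genes were the 20 called genes near Glo1 with the largest absolute difference, up to 5 on the rest of chromosome 17, up to 10 higher and 10 lower elsewhere, and members of the lists. All 5 called genes on the rest of chromosome 17 were named. Among the RMA values, 4 columns that matched other strains or no array were not used, so BXD14 was absent there. On simulated data with 45033 probe sets the strain comparison recovered 30% of differences of 0.05, 86% of 0.1 and 100% of 0.2 units, and the parental comparison 72% of 0.5 and 94% of 1 unit. False calls numbered 14 in the simulated strain comparison and 5 in the parental one. The simulated noise was independent between probe sets and had no batch or sex effects. For the parents it also had no spread between strains, so recovery in the real data may be lower. Arrays have no counting depth, so the number of strains limits the precision. Of 19 promoters found for 25 named genes, 2 were printed beside that of Glo1. Alternatives covered the score table, normalization, covariates, filters and omitted strains or arrays.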

Additional observations from a re-analysis of the deposited data

How the results depend on the processing

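Within 10 Mb of Glo1 the alternatives run gave 76 to 100 calls, except the filter on a mean level of 8 or more, which gave 55 there and 67 in all because fewer probe sets were tested; all 49 of the 86 calls that it tested stayed. RMA values shared 73 of the 86 calls, MAS5 values 63 and each other alternative that tested all 86 shared 80 to 86. Leaving out each strain in turn gave 100 to 118 calls in all, 82 to 94 near Glo1 and 0 to 1 on other chromosomes (without BXD1 or BXD51 Tle3, without BXD11 Jmjd1c, without BXD31 or BXD68 Grem1). On other chromosomes the count of 0 became 2 with RMA values (Syndig1l, Hdac4), 6 with MAS5 values, 3 with the BXD set as a covariate (Tle3, and, lower in high-Glo1 strains, Cx3cr1 at -0.109 and Tmem119 at -0.0854), and 1 each with strain as a random block over arrays (Rplp0), quantile normalization (Siglecf), without the strains closest to the midpoint (Fip1l1) and without arrays of high RMA outlier share (Grem1). The cause was not tested. The parental calls fell to 9 of 86 with MAS5 values and to 9 without a batch term, and ranged from 8 to 12 when 1 parental array was left out.

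Of 388 values of named genes over 16 settings, 372 kept direction and call, 16 lost the call and 0 reversed. H2-K1 lost it in 5 settings, with adjusted p up to 0.943 with MAS5 values, and Riok2 in 4; without BXD31 both lost it. Other probe sets of the same gene had the opposite sign for Adgrf5 (-0.0797), Cramp1l (-0.0665 and -0.0198), H2-D1 (-0.0353 and -0.0378), H2-K1 (0.0443 and 0.00775), Rcan2 (0.0338), Riok2 (0.00189) and Zfp945 (0.103 and 0.0184). Removal of BXD21 and BXD40, chosen after seeing the data, gave 108 calls with 85 near Glo1. No paired analysis was possible because replicate numbers were given in accession order and the groups are made of different strains. A mean level under 8 was found for 37 of the 86 calls, against 26213 of all 45033 probe sets tested.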
